A study of Mus musculus with 6 samples.

Results

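Replication-dependent histone genes encode the bulk of the histones that package newly made DNA, and they sit in a few genomic clusters. They were taken here as the gene symbols that begin Hist1, Hist2, Hist3 or Hist4 and have at least 1 read in the deposited count table. That gave 60 of 68 such symbols, among 24391 gene rows of which 18000 had a read. By histone class there were 6 genes for the linker histone H1, 15 for H2A, 17 for H2B, 10 for H3 and 12 for H4. By cluster there were 49 Hist1, 7 Hist2, 3 Hist3 and 1 Hist4 genes. The 8 symbols with no read were Hist1h2aa, Hist1h2ap, Hist1h2bq, Hist1h2br, Hist1h4m, Hist2h2aa1, Hist2h3c1 and Hist2h3c2.

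The samples were RNA of tumour-associated macrophages (macrophages taken from a tumour) sorted from colorectal tumours of BALB/C mice. Mice of the control genotype were wild type (WT), and the others lacked Ccl5, which encodes a chemokine (CCL5-/-). Counts covered libraries labelled as the CD11b-high F4/80-low sort gate, 2 WT and 2 CCL5-/-, numbered replicate 1 and replicate 2. A second table gave expression values for 2 libraries labelled as the CD11b-low F4/80-high gate, 1 per genotype. The labels give no age, sex, treatment or time, and do not say whether the knockout is whole-body or whether replicates came from separate mice, so a p-value here reflects how far single libraries differ, and that spread may be technical.

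Most messenger RNAs end in a poly(A) tail. Replication-dependent histone messages are the known exception: they are cleaved just after a short stem-loop that the stem-loop binding protein SLBP holds, and they carry no tail. They are made in S phase, while DNA is copied, and decay when it ends. A few of these genes are also known to make tailed transcripts in cells that have stopped dividing. The library kit named in the labels, TruSeq RNA v2, is known as a kit that selects RNA by its poly(A) tail. The sources used here do not say how RNA was selected in each library.

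Several facts of the libraries bear on all that follows. Rn45s, the ribosomal RNA precursor, took 58.4% and 50.03% of counts in replicate 1 of WT and CCL5-/-, and 0.844% and 1.38% in replicate 2. Levels are therefore given as CPM, counts scaled to a common library total, outside Rn45s. The counts outside it were 3857011 and 5243643 in replicate 1 of WT and CCL5-/-, and 22222208 and 18810113 in replicate 2. Ccl5 followed the labels of these 4 libraries, with 66.1 and 179 CPM in WT and 6.67 and 4.36 CPM in CCL5-/-. It went against the labels of the F4/80-high libraries, with 15.7 FPKM in the library labelled WT and 145 FPKM in the library labelled CCL5-/-. These labels are those of the genotype field, and the titles of the same libraries name the other genotype. Ratios between those 2 libraries also followed the replicate 1 libraries crosswise: the library labelled WT over the library labelled CCL5-/- differed from CCL5-/- over WT of replicate 1 by a median of 0.08 on the log2 scale over 5780 genes, which is no more than read sampling alone gives (0.08). The other orders of the same-numbered pairs differed by 0.29 to 0.38. The F4/80-high values are thus counted as a second reading of the replicate 1 libraries, and which gate replicate 1 came from cannot be told apart.

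The annotated ends of the members are shown first, because a stem-loop or a poly(A) signal is known to set which kind of end a transcript can have. The stem-loop was searched as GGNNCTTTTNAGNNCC on the transcribed strand of the 3' UTR in GENCODE M21 (GRCm38). In it the left NN was limited to C or T and the right NN to A or G, while the single N could be any base. The poly(A) signal was searched as AATAAA or ATTAAA starting within the last 40 bases of a transcript. Capitals mark the stem-loop or the signal. The first lines are the H1 gene with the most counts, which has both elements. They are followed by the H4 gene with the steepest fall between replicates, by an H4 gene and an H2A gene that were not called, and by an H2B gene in which the stem-loop search found no match.
Hist1h1c stem-loop: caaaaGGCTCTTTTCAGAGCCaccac
Hist1h1c transcript end: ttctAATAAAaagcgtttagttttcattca
Hist1h4f stem-loop: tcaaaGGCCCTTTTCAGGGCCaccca
Hist1h4i stem-loop: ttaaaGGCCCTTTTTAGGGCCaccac
Hist1h4i transcript end: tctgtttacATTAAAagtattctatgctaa
Hist3h2a stem-loop: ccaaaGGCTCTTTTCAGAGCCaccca
Hist3h2a transcript end: AATAAAataagagtacgtgtataacataag
Hist2h2be transcript end: ttattattAATAAAgttaccgattagtttc
In the same order these lie, in GRCm38, at chr13:23739507-23739532 and chr13:23740338-23740367 (plus strand), chr13:23551286-23551311 (minus), chr13:22040961-22040986 and chr13:22040636-22040665 (minus), chr11:58955167-58955192 and chr11:58956797-58956826 (plus), and chr3:96223709-96223738 (plus), each in the 3' UTR of a protein-coding gene.

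The stem-loop was found in 39 of 60 members (65%). Read over whole transcripts, it was found in 7 genes outside the histone clusters, among them the histone genes H2afx and H2bfm. These were 0.0126% of the 55450 annotated genes, a total that includes the cluster genes. It was found in 4 of 6 H1, 9 of 15 H2A, 10 of 17 H2B, 6 of 10 H3 and 10 of 12 H4 genes. Several members without a match are annotated without any 3' UTR, so the search there had nothing to read. The stem differed by class. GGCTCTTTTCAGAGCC was found in 22 members, 3 of H1, 8 of H2A, 8 of H2B and 3 of H3, and in no H4 gene. The 10 H4 genes with a match held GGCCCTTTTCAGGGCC (6), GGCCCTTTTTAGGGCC (2) or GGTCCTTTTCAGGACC (2). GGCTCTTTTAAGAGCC, with another base in the loop, was found in 6 members. A poly(A) signal near an annotated end was found in 14 members (23.3%), against 48.7% of 58797 protein-coding transcripts, and in no H3 gene. Members were counted by gene, over any of their transcripts, so the units of the 2 shares differ. In members annotated without a 3' UTR the window searched was coding sequence.

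Histone genes took a far smaller share of reads in replicate 2 than in replicate 1 in both genotypes. The 60 members summed to 1703 CPM in WT replicate 1 and 1112 CPM in CCL5-/- replicate 1, against 174 and 170 CPM in replicate 2. These were 6567 and 5829 reads in replicate 1 and 3865 and 3198 reads in replicate 2, or 0.170% (Wilson 95% interval 0.166% to 0.174%), 0.111% (0.108% to 0.114%), 0.0174% (0.0169% to 0.0179%) and 0.0170% (0.0164% to 0.0176%) of counts outside Rn45s. Intervals cover counting error only. The sum was 9.79-fold lower in replicate 2 in WT and 6.54-fold lower in CCL5-/-, a mean log2 ratio of -3.00 ± 0.41 (SD, n = 2 genotypes). In bulk RNA, fewer cells making histone messages, less histone RNA per cell and a smaller part of it taken into the library cannot be told apart. The replicate number has no stated meaning, and the gate of replicate 1 is uncertain, so a split between gates cannot be told apart either.

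By class sum, the ratio was lowest for the H3 genes and highest for the H2B genes. The 10 H3 genes summed to 263 and 164 CPM in WT and CCL5-/- replicate 1 and to 8.28 and 8.61 CPM in replicate 2, a mean log2 ratio of -4.62 ± 0.52 (SD, n = 2). The 12 H4 genes went from 397 and 248 CPM to 29.7 and 15.9 CPM (-3.85 ± 0.15). The 15 H2A genes went from 171 and 108 CPM to 23.1 and 17.9 CPM (-2.74 ± 0.21), and the 6 H1 genes from 604 and 396 CPM to 74.8 and 84.5 CPM (-2.62 ± 0.55). The 17 H2B genes went from 268 and 196 CPM to 38.0 and 43.2 CPM (-2.50 ± 0.45). No class overlapped between replicate numbers. By the median over single genes with a read in both libraries the order was another: H4 genes had the steepest fall, 31.5-fold in WT and 28.4-fold in CCL5-/-, and H2A genes the smallest, 10.5-fold and 6.45-fold, with H3 genes at 29.7-fold and 18.5-fold and H2B genes at 16.5-fold and 14.6-fold. The make-up of the histone counts shifted with it: H3 took 15.4% and 14.7% in replicate 1 and 4.76% and 5.07% in replicate 2, while H1 went from 35.5% and 35.6% to 43.0% and 49.7%.

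**Figure D1:**
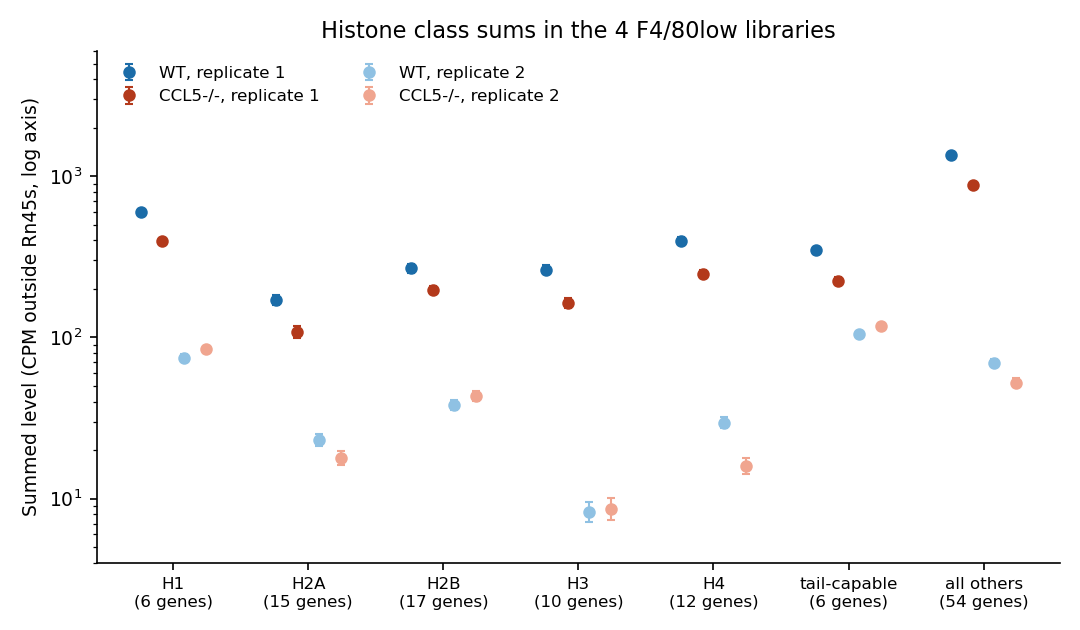
Summed level of each histone class, of the 6 tail-capable genes and of the other 54 members in the 4 libraries labelled F4/80-low. Levels are CPM outside Rn45s on a log axis. Points are libraries and bars are Wilson 95% intervals of counting. In each set both replicate 1 libraries lie above both replicate 2 libraries, with the widest gap in H3 (263 and 164 against 8.28 and 8.61 CPM) and the narrowest in the tail-capable genes.

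Part of these differences between classes came with a small list of genes. The list held Hist1h1c, Hist1h2bc, Hist2h2be, Hist3h2a, Hist3h2ba and Hist4h4, which are described as also making tailed transcripts. The 6 summed to 346 and 224 CPM in WT and CCL5-/- replicate 1 and to 104 and 118 CPM in replicate 2, while the other 54 went from 1356 and 888 CPM to 69.6 and 52.4 CPM. Their share of histone counts went from 20.3% and 20.2% to 60.0% and 69.2%. Without the list the mean log2 ratio was -4.69 for H1, -3.69 for H2A and -4.28 for H2B, beside -4.62 for H3, which has no gene on it. H4 hardly moved, at -3.83 without the list and -3.85 with it. The gap between classes was thus narrower without these genes.

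Of the 60 members, 55 passed the filter on low counts and 49 of those were lower in replicate 2, with none higher (edgeR, adjusted p under 0.05). Among all 12937 genes tested, 16.1% were lower and 13.8% were higher. Of the 55, 20 were over the filter's minimum in no replicate 2 library, so they passed only through replicate 1, where they are high. Others, such as Hist1h2ak, Hist1h3c and Hist4h4, were over it in 3 of the 4 libraries. Without the replicate 1 libraries these would not have passed either. The count of lower genes is therefore a description. With no filter all 60 could be tested, and 49 were lower and none higher, against 12.8% of all genes lower. Over the 60, both replicate 2 libraries lay below both replicate 1 libraries in 51 genes (85.0%), against 40.9% of all genes tested. With no filter the median fitted log2 change of the 60 was -4.02, against 0.01 for all genes, and 30 of the 60 (50%) lay below -4, against 4.32% of 17999 genes. By class, 5 of 5 H1, 12 of 13 H2A, 11 of 15 H2B, 10 of 10 H3 and 11 of 12 H4 genes tested were lower.

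The H1 genes make the linker histone that binds DNA between nucleosomes. Hist1h1c had the most counts of all members, with 282 and 174 CPM in WT and CCL5-/- replicate 1 and 64.4 and 74.2 CPM in replicate 2. It fell less than the other H1 genes, by 1.55 on the log2 scale (SE 0.27, edgeR adjusted p = 0.00169). Hist1h1e had 181 and 129 CPM in replicate 1 and 5.04 and 5.85 CPM in replicate 2. That was a fall by 4.65 (SE 0.28, edgeR adjusted p = 5.57e-06), a 36.0-fold difference in WT and 22.1-fold in CCL5-/-. Hist1h1d went from 88.7 and 55.5 CPM to 3.10 and 3.30 CPM, and fell by 4.31 (SE 0.31, edgeR adjusted p = 9.84e-06). Its annotated transcript runs 4884 bases past the stem-loop. The gene bodies of Hist1h1e and Hist1h2be overlap in the annotation, so reads there could be given to either. Hist1h1t, a testis H1 gene, had 1 read in all, in CCL5-/- replicate 1.

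The H2A and H2B genes make the pair of histones that flank the core of the nucleosome. Hist2h2ac had 38.6 and 25.4 CPM in WT and CCL5-/- replicate 1 and 0.945 and 1.06 CPM in replicate 2. Hist1h2ak had 34.0 and 22.7 CPM against 0.900 and 0.425 CPM. Both replicate 2 values lay far below both replicate 1 values. The first gene fell by 4.80 (SE 0.36, edgeR adjusted p = 1.39e-05) and the second fell by 5.18 (SE 0.43). No p is given for Hist1h2ak, as it needed the replicate 1 libraries to pass the filter. Hist3h2a did not follow them: it had 12.7 and 10.3 CPM in replicate 1 and 11.4 and 9.99 CPM in replicate 2. Its fitted log2 change was 0.10 (SE 0.30, edgeR adjusted p = 0.839), and the replicate numbers overlapped.

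Among H2B genes, Hist2h2bb had 77.3 and 47.9 CPM in WT and CCL5-/- replicate 1 and 1.48 and 2.07 CPM in replicate 2, a fall by 4.96 (SE 0.34, edgeR adjusted p = 9.84e-06). Hist1h2be went from 35.5 and 24.6 CPM to 1.80 and 1.44 CPM, a fall by 4.01 (SE 0.35, edgeR adjusted p = 3.46e-05). Hist1h2bc was not called, with 30.6 and 25.4 CPM in replicate 1 and 24.3 and 28.6 CPM in replicate 2 (log2 0.10, SE 0.24, edgeR adjusted p = 0.768). It therefore made up most of the H2B counts of replicate 2, with 539 of 845 reads in WT and 538 of 812 in CCL5-/-. Hist2h2be was the only member with both replicate 2 libraries above both replicate 1 libraries. It had 1.56 and 1.53 CPM (6 and 8 reads) in replicate 1 and 2.56 and 3.67 CPM (57 and 69 reads) in replicate 2, a fitted log2 difference of 1.20 (SE 0.57) that did not pass (edgeR adjusted p = 0.128). Hist3h2ba stayed near 1 CPM, at 1.30 and 0.572 CPM in replicate 1 and 0.900 and 0.638 CPM in replicate 2, from 3 to 20 reads. Hist1h2ba, a testis H2B gene, had 5 reads in WT replicate 1 and 0 elsewhere.

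Every H3 gene fell. H3 and H4 form the core that the nucleosome's DNA first wraps. Hist1h3e, the H3 gene with the most counts, had 70.5 and 43.3 CPM in WT and CCL5-/- replicate 1 and 2.12 and 1.38 CPM in replicate 2 (fell by 4.82, SE 0.37, edgeR adjusted p = 3.04e-05). Hist1h3c went from 37.3 and 24.8 CPM to 0.810 and 1.17 CPM, and fell by 4.79 (SE 0.37). It needed the replicate 1 libraries to pass the filter, so its p is not given. Hist2h3b went from 44.1 and 19.1 CPM to 0.270 and 0.532 CPM (6 and 10 reads), a fitted log2 change of -6.11 (SE 0.56). It entered the test only through the replicate 1 libraries, where it is high, so no p is given for it. The least change of an H3 gene was that of Hist1h3a, with a log2 ratio of -2.96 in WT and -2.48 in CCL5-/-.

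The H4 genes held both the steepest fall of all members and a gene that was not called. Hist1h4f had 51.9 and 35.1 CPM in WT and CCL5-/- replicate 1 (200 and 184 reads) and 0.315 and 0.106 CPM in replicate 2 (7 and 2 reads). The ratio was 165-fold in WT (exact 95% counting interval 78.4 to 415) and 330.0-fold in CCL5-/- (90.1 to 2746). Hist1h4k went from 22.0 and 24.4 CPM to 0.360 and 0.585 CPM, a fitted log2 change of -5.42 (SE 0.39). Both genes passed the filter only through the replicate 1 libraries, where they are high, so their p-values are not given. Hist1h4d went from 77.3 and 50.3 CPM to 2.52 and 1.44 CPM, and fell by 4.80 (SE 0.37, edgeR adjusted p = 4.07e-05). Hist1h4h went from 60.9 and 30.1 CPM to 3.33 and 1.49 CPM, and fell by 4.03 (SE 0.53, edgeR adjusted p = 0.00222). Hist4h4 needed the replicate 1 libraries to pass the filter, so its p is not given either. Although on the tail-capable list, it went from 17.6 and 12.2 CPM to 0.855 and 0.532 CPM, and fell by 4.199 (SE 0.46). Hist1h4i is not on that list, and it had 15.0 and 10.1 CPM in replicate 1 and 16.1 and 7.60 CPM in replicate 2 (log2 0.13, SE 0.42, edgeR adjusted p = 0.845). In WT replicate 2 it held 357 of the 659 H4 reads.

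**Figure D2:**
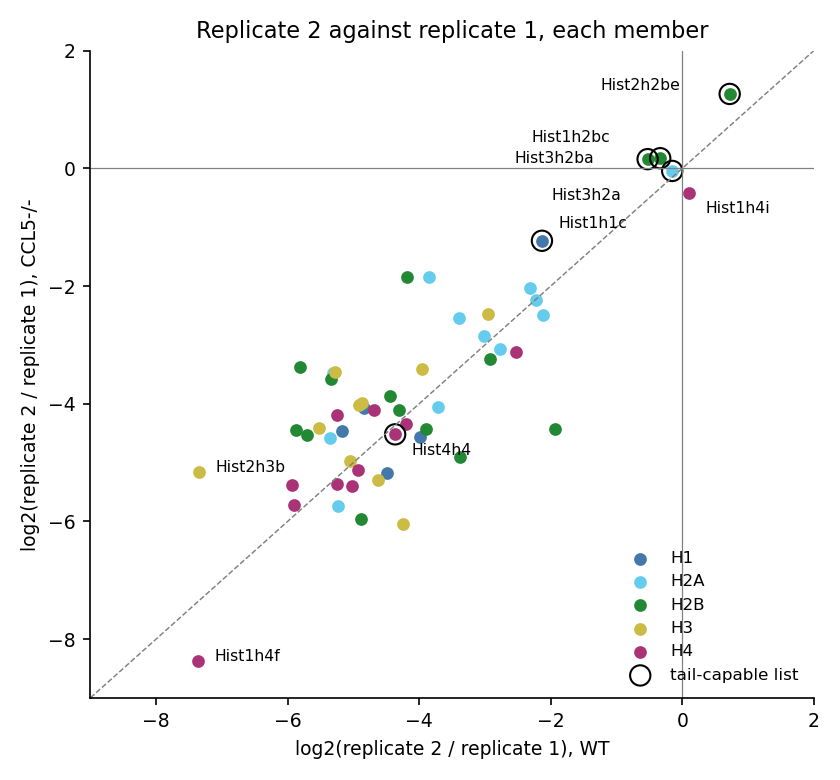
Log2 ratio of replicate 2 over replicate 1 for each member with a read in both libraries, in WT (x axis) and in CCL5-/- (y axis); colours mark the class, rings the 6 tail-capable genes, and the dashed line equal ratios. Most members lie between -2 and -6 on both axes, while Hist1h2bc, Hist2h2be, Hist3h2a, Hist3h2ba and Hist1h4i lie near or above 0 and Hist1h4f lies lowest.

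Across the members the median fold between replicate numbers was 21.2-fold in WT over 56 members with a read in both libraries, and 17.0-fold in CCL5-/- over 54. It was over 10-fold in 40 members in WT and in 37 in CCL5-/-. Hist2h2ab had 30 reads in replicate 1 and 6 in replicate 2 of WT, and 19 and 0 reads in CCL5-/-, which allows at least a 22.7-fold fall there with a floor of 3 reads in that library. With no filter, 11 members were not called. Of these, 5 are Hist1h2bc, Hist1h4i, Hist2h2be, Hist3h2a and Hist3h2ba, which had fitted log2 changes near 0 or, in Hist2h2be, above it. The others were Hist1h2bp, which had 6 and 6 reads in replicate 1 and 9 and 1 in replicate 2, and the 5 that had failed the filter: Hist1h1t, Hist1h2ao, Hist1h2ba, Hist2h2aa2 and Hist3h2bb-ps, which is annotated as a pseudogene. Naming these 11 goes past the rule for named genes, and was done after their values were seen.

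The split was compared with what the annotation says of the transcript ends. The 14 members with a poly(A) signal near an annotated end had a median log2 ratio of -2.13 in WT, and the others had -4.84. In CCL5-/- the medians were -4.10 and -4.07. The difference between the groups of members was not tested, nor was that between genotypes. Of the 5 uncalled genes described above, Hist2h2be, Hist3h2a, Hist3h2ba and Hist1h4i had a signal and Hist1h2bc had none. Members with a signal also included steep falls, such as Hist1h4j (log2 -5.02 in WT and -5.40 in CCL5-/-) and Hist4h4. Members with a stem-loop and no signal ranged from -7.36 to -2.32 in WT and from -8.37 to -1.84 in CCL5-/-.

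**Figure D3:**
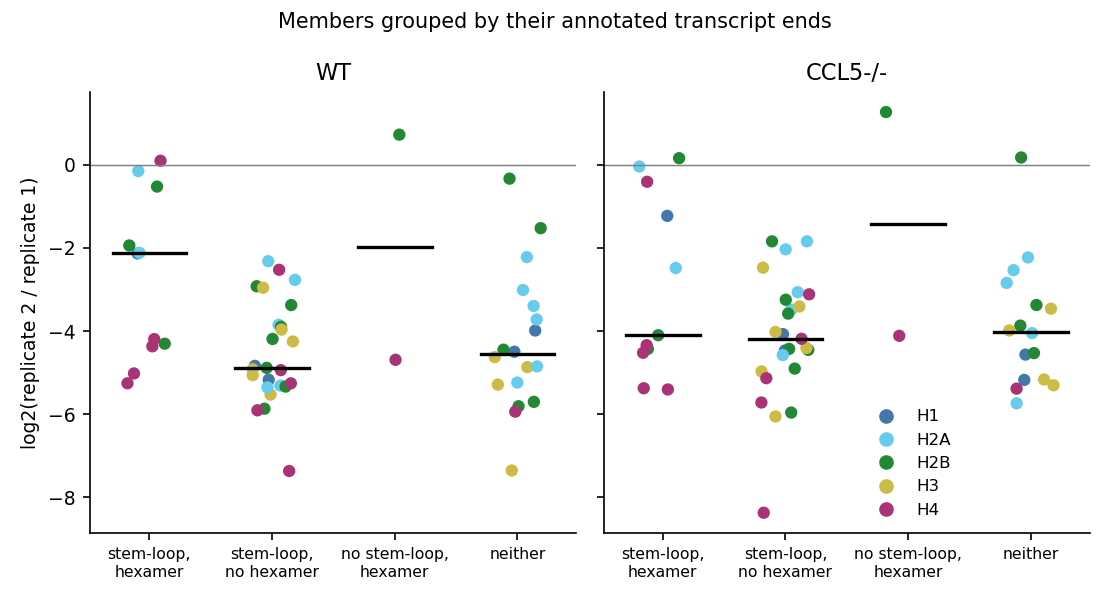
Log2 ratio of replicate 2 over replicate 1 for members grouped by whether a stem-loop was found in the 3' UTR and whether a poly(A) hexamer lies near an annotated transcript end, in WT (left) and CCL5-/- (right); points are genes coloured by class and lines are medians. Members with a stem-loop and no hexamer all lie below -1.8, and those near 0 are mostly genes with a hexamer.

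By position in the genome, the 19 members of the lower block on chromosome 13 (21715763 to 22043676) had a median log2 ratio of -4.32 in WT and -3.72 in CCL5-/-, and the 30 of the upper block (23531050 to 23934156) had -4.50 and -4.11. The 7 on chromosome 3 had -5.30 and -4.58, and Hist4h4 alone lies on chromosome 6. The 3 on chromosome 11, with Hist3h2a and Hist3h2ba among them, had a median of -0.53 in WT. Some histone genes are near-identical copies of each other, so their reads can be given to a sister gene. The share of a gene's 50-base words found in no other gene ran from 0% (Hist2h2bb, Hist2h3b) to 100% (Hist2h2be, Hist1h1b), and values of genes with a low share are uncertain. The 30 members with the higher share of such words had a median log2 ratio of -4.25 in WT and -4.19 in CCL5-/-, and the 30 with the lower share had -4.74 and -3.98.

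Gene lists around the histone messages held no such fall. The replication-independent histone variants, whose messages carry a tail, summed to 2971 and 2870 CPM in WT and CCL5-/- replicate 1 and to 3308 and 3263 CPM in replicate 2. Of 10 variant genes tested, 4 (40%) were higher in replicate 2 and none lower (edgeR), with a median log2 change of 0.60. Among all genes tested 13.8% were higher and 16.1% lower. H2afz, the H2A variant H2A.Z, had 361 and 400.3 CPM in replicate 1 and 956 and 850 CPM in replicate 2 (log2 1.44). H1fx, a linker variant, went from 8.82 and 6.67 CPM to 23.1 and 38.5 CPM (log2 2.18). Cenpa, the centromere H3, and H2afj were the others that rose. H2afx, the variant on this list with a stem-loop match, had 61.2 and 62.6 CPM in replicate 1 and 48.0 and 107 CPM in replicate 2 and did not pass.

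Genes of DNA replication, which act in the phase when histone messages are made, summed to 1844 and 2486 CPM in WT and CCL5-/- replicate 1 and to 2212 and 2915 CPM in replicate 2. Of 40 tested, 9 (22.5%) were higher and 3 (7.5%) lower in replicate 2, against 13.8% and 16.1% of all genes, with a median log2 change of 0.29. Pcna, the sliding clamp of DNA polymerase, had 212 and 332 CPM in replicate 1 and 464 and 585 CPM in replicate 2. Rfc4, a clamp loader subunit, and Dut, which keeps uracil out of DNA, rose as well. Mitosis genes summed to 1325 and 1603 CPM in replicate 1 and 1323 and 1450 CPM in replicate 2. Of 20 tested, 4 (20%) were higher, among them Cdk1, and 2 (10%) lower, among them Cenpf, with a median log2 change of 0.13.

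Slbp, the stem-loop binding protein, had 41.7 and 53.4 CPM in WT and CCL5-/- replicate 1 and 54.4 and 80.5 CPM in replicate 2, and rose by a log2 change of 0.69 (edgeR adjusted p = 0.041). Of 19 tested genes of histone message processing and decay, 2 (10.5%) were higher and 3 (15.8%) lower in replicate 2, shares near the 13.8% and 16.1% of all genes. The lower ones were Npat, the activator of histone transcription, and Zcchc6 and Zcchc11, which add uridines to RNA ends. Zcchc6 had 123 and 125 CPM in replicate 1 and 27.4 and 27.3 CPM in replicate 2. Lsm1, a decay factor, was the other that rose. Of 18 histone chaperones, 5 (27.8%) were higher, among them Nasp and Nap1l1, and 3 (16.7%) lower, among them Supt16 and Cabin1.

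Small structured RNAs that carry no tail were also lower in replicate 2, and most of their replicate 1 sum was 1 gene. The 121 symbols of this list summed to 4805 and 2219 CPM in WT and CCL5-/- replicate 1 and to 84.1 and 72.0 CPM in replicate 2. Of 46 that passed the filter, 19 (41.3%) were lower in replicate 2 and none higher (edgeR), with a median log2 change of -1.97. Among all genes tested 16.1% were lower and 13.8% higher. With no filter 20 of 104 (19.2%) were lower and 1 higher, with a median of -1.47. Without it 12.8% of all genes were lower and 13.3% higher. Rmrp, the RNA of the RNase MRP enzyme, had 14144 and 8989 reads in replicate 1, or 76.3% and 77.2% of the list, and 54 and 143 in replicate 2. The list was 57.1-fold lower in replicate 2 in WT and 30.8-fold lower in CCL5-/-, and without Rmrp 13.9-fold and 7.85-fold lower. Terc, the telomerase RNA, had 17.6 and 8.20 CPM in replicate 1 and 0.405 and 0.585 CPM in replicate 2. Snord72 had 3.89 and 1.53 CPM against 5.54 and 2.23 CPM and did not fall, so the list was not uniform.

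**Figure D4:**
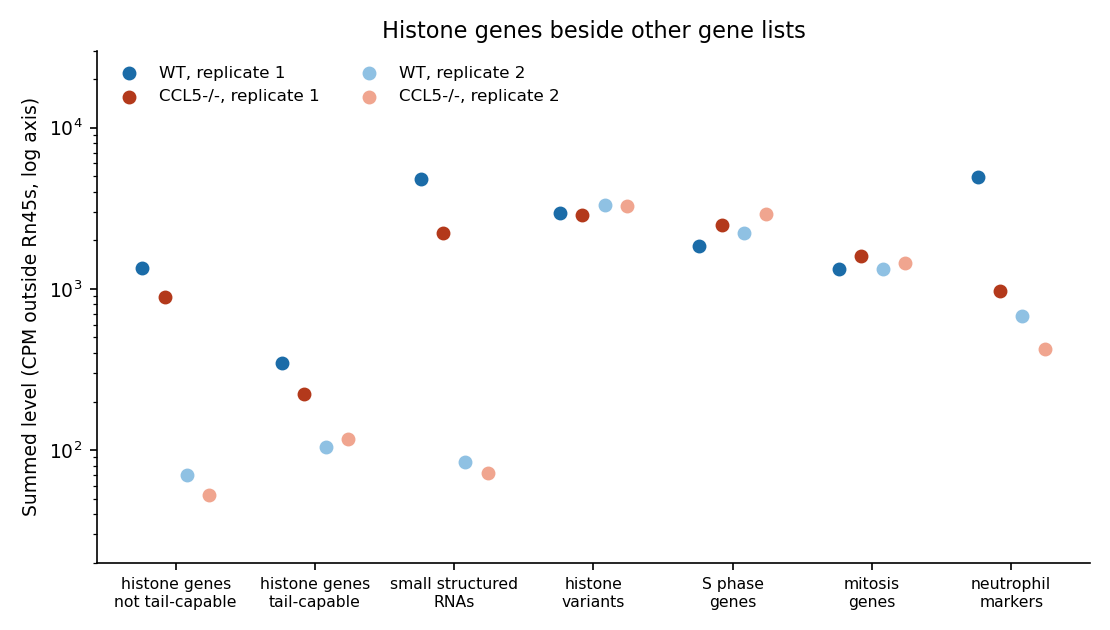
Summed level of the histone genes and of other gene lists in the 4 libraries labelled F4/80-low, in CPM outside Rn45s on a log axis. Points are libraries. The histone genes that are not tail-capable (1356 and 888 against 69.6 and 52.4 CPM) and the small structured RNAs (4805 and 2219 against 84.1 and 72.0 CPM) drop in replicate 2, while the histone variants and S phase genes are higher there and the mitosis genes are at 1323 to 1603 CPM throughout.

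Markers of other cell types were read in the same libraries and compared between replicate numbers (edgeR). Among all genes tested 16.1% were lower in replicate 2 and 13.8% higher. Lower in replicate 2 were 2 of 8 neutrophil markers tested, 1 of 4 epithelial and 1 of 5 fibroblast markers, and 1 of 8 T and NK cell markers was higher. Of 12 macrophage and monocyte markers 3 were higher and 2 lower. No B cell (2 tested), dendritic cell (5), endothelial (4) or neutrophil precursor (2) marker was called. Neutrophil markers summed to 4953 and 968 CPM in WT and CCL5-/- replicate 1 and to 679 and 421 CPM in replicate 2. In each CCL5-/- library 1 of 10 markers was at 0. All 8 tested had a fitted log2 change below 0, with a median of -3.54. With a genotype term 6 of the 8 were called lower, against 2324 of 12937 genes. Neutrophil precursor markers, of cells that divide, summed to between 2.82 and 5.96 CPM. Macrophage and monocyte markers, all 12 detected in every library, summed to 5691 and 8158 CPM in replicate 1 and 10455 and 6791 CPM in replicate 2. T and NK cell markers ranged from 83.7 to 343 CPM, B cell markers from 8.30 to 121 CPM, dendritic cell markers from 68.3 to 106 CPM, epithelial markers from 23.8 to 48.5 CPM, fibroblast markers from 1131 to 1482 CPM, endothelial markers from 12.5 to 31.4 CPM and red cell markers from 1.49 to 4.15 CPM. Hepatocyte markers were at 164 CPM in CCL5-/- replicate 1 and under 1 CPM elsewhere. The table held no mitochondrially encoded gene. The part of these cells, of the Rn45s share and of RNA selection in the histone result was not tested.

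The comparison of CCL5-/- with WT asks how loss of the chemokine changes the macrophages. No histone member passed: 0 of 55 tested (edgeR), where 0% of 12937 genes were called in either direction. At an unadjusted p under 0.05 there were 0 members and 39 genes. DESeq2 called 0 members with 0 at that p, and limma-voom called 0 with 1. The spread within each genotype held the replicate split, so standard errors were wide, from 0.36 (Hist1h2bc) to 2.33 (Hist1h4f) on the log2 scale among named members. The median fitted log2 change of the 55 was -0.68, against -0.02 for all genes. By the authors' deposited table, 0 of 60 members had an adjusted p under 0.05 (the lowest was 0.999924), and 53 were lower and 7 higher in CCL5-/-. The log2 values of the authors' deposited table ran from -0.44 for Hist1h4i to 0.12 for Hist1h1a.

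Within the replicate 1 pair, histone levels were lower in CCL5-/-, and within the replicate 2 pair they were split. All members summed to a log2 ratio of -0.62 in the first pair and -0.03 in the other. In replicate 1 the classes were at -0.61 (H1), -0.66 (H2A), -0.45 (H2B), -0.68 (H3) and -0.68 (H4). In replicate 2 they were at 0.17 (H1), -0.37 (H2A), 0.18 (H2B), 0.06 (H3) and -0.90 (H4). H4 and H2A were thus lower in CCL5-/- in both pairs, while H1, H2B and H3 had opposite signs. The 4 libraries leave no test of genotype within a pair. By gene, CCL5-/- was lower in 50 of 60 members (83.3%) in replicate 1 and in 33 (55.0%) in replicate 2, against 38.0% and 45.1% of all genes tested. In both pairs 28 members (46.7%) were lower, 10 of them H4 and 10 H2A genes, and 3 (5%) were higher, against 18.4% and 35.2% of all genes. Only 7 members had at least 50 reads in both replicate 2 libraries, and of these 2 were lower and 5 higher, so most single-gene ratios in that pair rest on few reads.

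**Figure D5:**
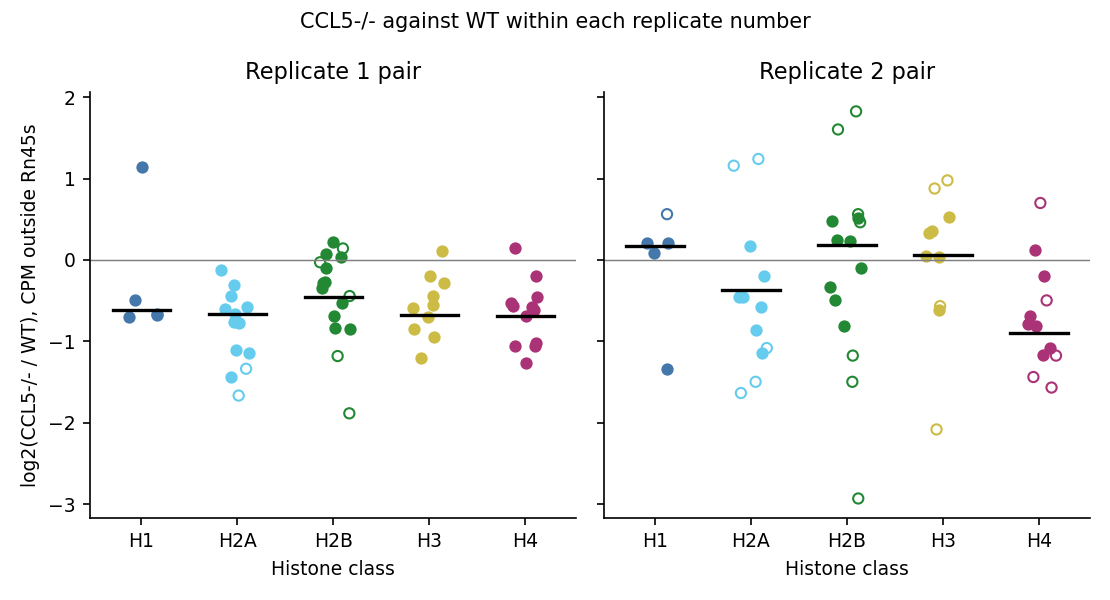
Log2 ratio of CCL5-/- over WT for each member by class, within the replicate 1 pair (left) and the replicate 2 pair (right), in CPM outside Rn45s; open points have under 10 reads in 1 of the libraries and lines are the class sums. In replicate 1 all 5 class sums lie below 0 (-0.68 to -0.45), and in replicate 2 they run from -0.90 (H4) to 0.18 (H2B).

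Other sums of the same pairs stand beside these, with 0 genes called by edgeR in any list. In the replicate 1 pair the small structured RNAs had a log2 ratio of -1.11 and neutrophil markers -2.36, and in the replicate 2 pair they had -0.22 and -0.69. With the replicate number as a term, edgeR called 2 of 8 neutrophil markers, 1 of 46 small structured RNAs and 1 of 5 fibroblast markers lower in CCL5-/-. Among all 12937 genes tested that way, 23 (0.178%) were called lower and 1 higher. S phase genes were at 0.43 and 0.40, and 35 of the 40 tested (87.5%) had a fitted change above 0, against 47.6% of all genes, with 0 called by edgeR and 1 at an unadjusted p under 0.05. The variants, with 0 of 10 called, were at -0.05 and -0.02. The genes of histone message processing and decay (0 of 19), the chaperones (0 of 18) and the mitosis genes (0 of 20) had no call either, with medians of 0.07, 0.13 and 0.13. The part of the RNA selection and of the neutrophils in the lower histone levels of CCL5-/- replicate 1 was not tested.

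The 4 members that the naming rule took from this comparison did not pass. Hist1h4i had the smallest p, with 15.0 and 16.1 CPM in WT and 10.1 and 7.60 CPM in CCL5-/-, a fitted log2 change of -0.94 (SE 0.39, edgeR adjusted p = 0.9999). Both CCL5-/- libraries lay below both WT libraries, as they did in Hist3h2a (12.7 and 11.4 against 10.3 and 9.99 CPM) and Hist3h2ba (1.30 and 0.900 against 0.572 and 0.638 CPM). These were the only 3 of 60 members (5%) in which the genotypes did not overlap, against 5.35% of all genes tested, and none lay above. None of the 3 was called between the replicate numbers. Hist1h2ah had 3.63 and 0.450 CPM in WT and 1.144 and 0.159 CPM in CCL5-/- (log2 -1.80, SE 1.46, edgeR adjusted p = 0.9999), with 3 reads in CCL5-/- replicate 2. In the other direction Hist1h1a had 2.85 and 0.18 CPM in WT and 6.29 and 0.266 CPM in CCL5-/- (log2 1.13, SE 1.73), from 4 to 33 reads. Hist2h2be was at 0.24 (SE 0.77). In each of these last 3 genes the genotypes overlapped.

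The libraries labelled F4/80-high give the replicate 1 libraries in another unit, FPKM (fragments scaled by the authors to transcript length and library total). A comparison of levels between genes in this unit holds only as far as the annotated lengths are those of the RNA. There are no replicates, and their depth is unknown. Over 67 listed histone symbols the sum was 1494 FPKM in the library labelled WT and 2125 FPKM in the library labelled CCL5-/-, a log2 ratio of 0.51. Ccl5 went against these labels, and read by the crosswise match the direction is that of the replicate 1 counts. Per length, H4 took the largest share of it, 37.5% in the library labelled WT and 39.6% in the other. H2B followed with 25.7% and 22.0%, then H3 with 14.0% and 14.6%, H1 with 12.7% and 13.8% and H2A with 10.03% and 9.95%. H1 thus had the largest share of counts in replicate 1 but not of the length-scaled level. Annotated lengths can run far past the stem-loop: in GENCODE M21 Hist1h1d has 7425 bases, with 4884 past it, and Hist1h4h has 470. The lengths the authors used are not known here, and their part in the order of the classes was not tested. Hist1h4d had 122 and 192 FPKM and Hist1h4f 99.5 and 134 FPKM, above Hist1h1c with 91.7 and 153 FPKM in the library labelled WT. Of the 60 members, 48 were higher in the library labelled CCL5-/-, 10 lower and 2 listed at 0 in both (Hist1h1t and Hist1h2ba).

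Near-identical genes were given different reads in the 2 tables. Hist1h4m had 0 reads in all 4 libraries of the count table and 32.7 and 53.3 FPKM. Hist1h4n, an H4 gene in the same block of chromosome 13, had 58 and 49 reads in CCL5-/- and WT replicate 1 and 0.581 and 0.702 FPKM. Only 14.4% of the 50-base words of Hist1h4n, and 10.2% of those of Hist1h4m, are found in no other gene. Single values of these H4 genes are therefore uncertain. The class sum takes in reads given to any of them. The sources used here do not say whether reads that match several genes were counted, so the class sums may miss some.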

How the data were processed

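RNA of tumour-associated macrophages labelled F4/80-low was analysed from whole-number read counts per gene, deposited by the authors. The authors' deposited table of their own comparison gave a log2 fold change and an adjusted p-value per gene. FPKM values for the F4/80-high libraries were made and deposited by the authors. Per the submitters' processing notes, STAR, HTSeq, DESeq2, TopHat2 2.1.1 and Cufflinks 2.2.1 were used; the sources used here do not say which of them, which build and which strand setting belong to which table. Groups of the F4/80-low libraries follow the genotype and title fields. Groups of the F4/80-high libraries follow the genotype field alone, because their titles name the other genotype. The Rn45s row was left out before library sizes. After filterByExpr, edgeR 4.0.16 (R 4.3.3) fitted the counts with TMM factors and a robust quasi-likelihood model, and its two-sided F test was adjusted by Benjamini-Hochberg over the 12937 genes left, with a threshold of 0.05. Standard errors are the log2 change divided by the square root of F. DESeq2 1.42.0 and limma-voom 3.58.1 were alternatives. CPM values are counts scaled to the library total outside Rn45s, without TMM factors, and fitted changes include the factors. Counts outside Rn45s ranged from 3857011 to 22222208, so 1 read is 0.259 to 0.0450 CPM. Exact counting intervals of ratios condition on the summed reads, and share intervals are Wilson 95%. FPKM ratios use a pseudocount of 0.1.

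Members and gene lists were chosen with earlier results of these data known. Named genes were the 3 members per class with the highest mean CPM, the tail-capable list, and up to 5 members per direction by smallest adjusted p in each comparison (if none was called, 2 per direction by smallest p). Up to 4 genes by the replicate comparison, and up to 2 by genotype, were taken from each other list. Stem-loops, poly(A) signals and unique words were read from GENCODE M21 on GRCm38. The count table has no coordinates. Only some of the genes taken from those other lists are described here.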

Additional observations from a re-analysis of the deposited data

How the results depend on the processing

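The number of members called held within 1.5 times under all 22 alternatives run. Between replicate numbers it was 49 with RLE factors, with a genotype term and with no filter, 46 with DESeq2, 47 with limma-voom, 46 with Rn45s kept, and 41 to 47 when a library was left out. Between genotypes it was 0 in each. With the replicate number as a term (replicate block) edgeR called 0 members, with 12 at an unadjusted p under 0.05, all lower in CCL5-/- and 7 of them H4 genes (21.8% of 55, against 6.04% of all genes), and a median log2 change of -0.55. It called 24 genes in all. DESeq2 and limma-voom with the replicate block, added after seeing the data, called 0 with 5 and 16 at that p. The labels give the number no meaning. Same-numbered libraries deviated together, with a correlation of 0.74 over all genes tested and 0.92 over members, from 2 pairs only.

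Class sums between replicate numbers kept their sign under the alternatives run, and 16 of 47 values moved. Between genotypes 0 of 47 moved by more than the spread between pairs, but without either replicate 1 library the sums of H1 (-0.22 to 0.17), H2B (-0.13 to 0.18) and H3 (-0.31 to 0.06) changed sign. With Rn45s in the denominator, which shifts every gene alike, the mean log2 ratios were -1.88 (all), -1.50 (H1), -1.62 (H2A), -1.38 (H2B), -3.50 (H3) and -2.73 (H4). Without the 3 highest members of each class they were -3.46 (all), -4.76 (H1), -3.03 (H2A), -3.37 (H2B) and -3.25 (H4), and without the tail-capable list -4.18 (all), -4.69 (H1), -3.69 (H2A) and -4.28 (H2B). With TMM library sizes H4 was at -3.66. The FPKM median log2 ratio was 0.49, and 0.44 with a pseudocount of 1.

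Of the named members, 204 of 216 values between replicate numbers kept direction and call. Uncalled genes changed sign with a library left out: Hist3h2a ranged from -0.12 to 0.30, Hist1h2bc from -0.093 to 0.29, Hist1h4i from -0.58 to 0.60 and Hist3h2ba from -0.62 to 0.66 (0.015 with no filter). Hist1h2ah, which passed the filter only through replicate 1, lost its call in 5 settings, with log2 values of -1.61 (without WT replicate 1), -3.64 (without WT replicate 2), -2.13 (without CCL5-/- replicate 2), -2.75 (DESeq2) and -2.53 (limma-voom). Between genotypes, where none was called, leaving out a library mixes genotype with replicate number: Hist2h2be ranged from -0.70 to 0.79, Hist1h2ah from -3.39 to 0.14 and Hist1h1a from -2.18 to 3.82. The causes were not tested. Depth limits the replicate 2 values: 18 and 14 members had 1 to 9 reads in WT and CCL5-/- replicate 2.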
